A study of Danio rerio with 70 samples.

Results

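The mitochondrially encoded genes of zebrafish were followed across 70 poly(A)-selected, stranded RNA-seq libraries of thymocytes and T cell acute lymphoblastic leukemia (T-ALL). They were taken as every gene whose symbol begins with mt-, and 13 of the 35117 counted genes qualified. All 13 encode proteins of the respiratory chain. The mitochondrial ribosomal and transfer RNAs were given no such symbol by the gene names used and were not analysed here. Any reads counted on them stayed outside the mitochondrial share and among the reads called non-mitochondrial below.

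The series holds 13 groups of libraries from 2 laboratories. The Speleman laboratory contributed 12 libraries of transplanted T-ALL, in which 5000000 leukemia cells had been placed into Rag2-/- zebrafish. Of these, 6 came from the heterozygous tumours PT1 and PT2 of the genotype Tg(rag2:hTLX1; rag2:GFP);phf6+/- and 6 from the tumours T1 and T2 of the genotype Tg(rag2:hTLX1; rag2:GFP). The same laboratory contributed 4 primary T-ALL of the phf6+/- genotype and 2 of the genotype Tg(rag2:hTLX1; rag2:GFP) alone. It also contributed 6 libraries of dissected thymi of healthy Tg(rag2:GFP) fish. Among the latter, AB-thymus-2-3-5-6 bears several numbers, may stand for a pool, and was counted as 1 thymus. The rag2 promoter, active in immature lymphocytes, drives human TLX1 and the reporter in this model, and the Rag2-/- hosts keep their other blood and tissue cells. The Frazer laboratory contributed sorted T-ALL cells of the hulk (9), otg (10) and shrek (10) mutant lines. It also contributed sorted GFP-positive preleukemic thymocytes of hulk (3), otg (4), shrek (2) and Tg(rag2:hMYC) fish (3), and sorted thymocytes of 5 healthy fish. All Frazer fish carry Tg(lck:GFP), a reporter under a T cell promoter. Every tumour of both laboratories was collected when GFP-positive leukemia cells had taken over 90% of the fish. The healthy thymi of the Speleman laboratory were dissected tissue, while their Frazer counterparts were sorted cells. The healthy sorted thymocytes stand in a count table of their own, so table and group cannot be told apart in comparisons with them.

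Mitochondrial DNA is a small circular genome present in many copies per cell. Both of its strands are transcribed as long precursors that are cut into individual messages, so the abundance of each message reflects its processing and decay as well as transcription. Its protein genes supply core subunits of the respiratory complexes I, III, IV and V, while nuclear genes supply the remaining subunits, the mitochondrial ribosome and the transcription machinery. Developing thymocytes and leukemic T cells depend on this chain for ATP and for the precursors of nucleotide synthesis. A high share of mitochondrial reads is also widely used as a mark of stressed or damaged cells.

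Gene-assigned reads ranged between 8676867 and 56471528 per library. The lowest count for a single member was 2 reads, for mt-nd6 in the otg tumour OC2, so counting error was small for every member other than mt-nd6. Markers of T cells were read in every group, with all 16 markers detected in each. Nothing in the labels says that every library came from a different fish, so p-values measure the spread between these libraries. In bulk samples, fewer cells of a type and less RNA per cell cannot be told apart.

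The share of gene reads on the 13 genes spanned 0.479% in the otg tumour OC2 to 61.4% in the hulk tumour HC2, with a median of 2.68% over the 70 libraries. Just 3 libraries lay above 20%, namely the hulk tumours HC1 (25%) and HC2 (61.4%) and the healthy sorted sample WT3 (22%). The preleukemic hulk sample HPL3 (15.7%) and the otg tumour OC5 (11.9%) followed. All remaining libraries were at or below 8.5%, the share of the heterozygous tumour PT2.

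**Figure D1:**
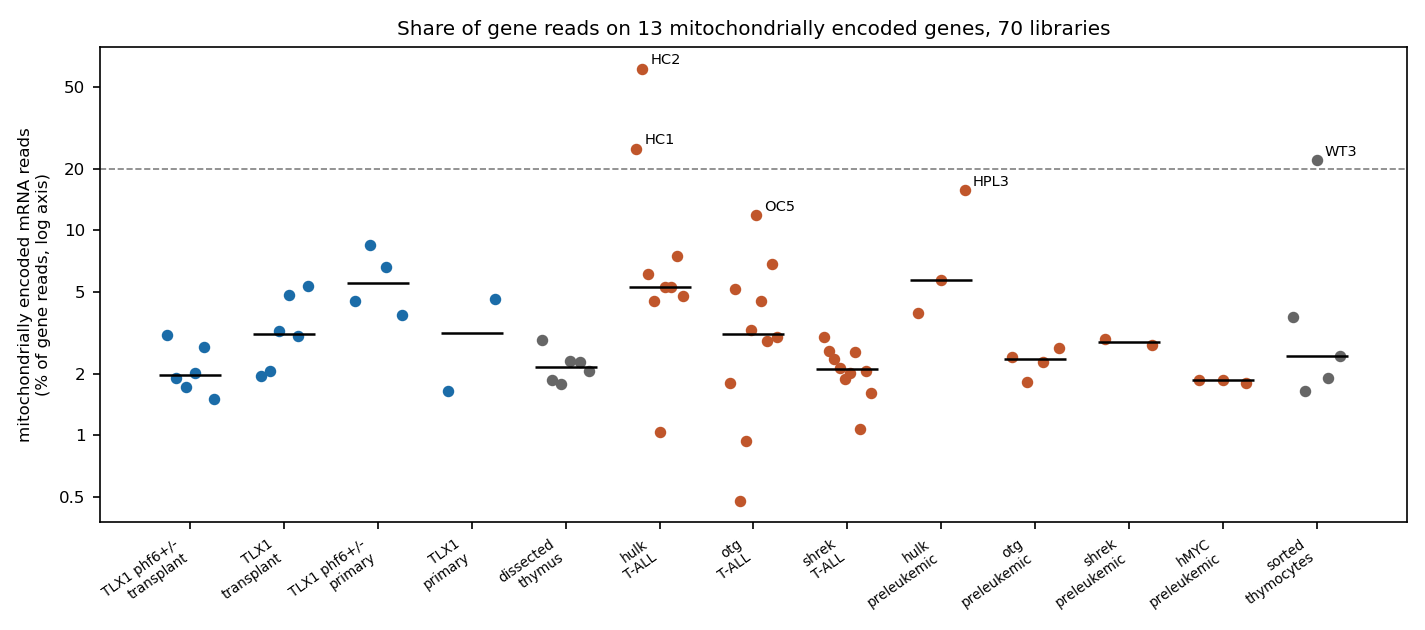
Share of gene reads on the 13 mitochondrially encoded genes (vertical log axis, percent) in each of the 70 libraries, by group; each point is 1 library, short bars are group medians, the dashed line marks 20%, and libraries above 10% are named. The shrek tumours lie between 1.07% and 3.02%, the hulk tumours between 1.04% and 61.4%.

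Among the sorted tumours, the lines differed in how far their libraries spread. Shrek tumours ranged from 1.07% to 3.02% with a median of 2.1%. Otg tumours ranged from 0.479% to 11.9% with a median of 3.13%, and hulk tumours from 1.04% to 61.4% with a median of 5.29%. All hulk tumours other than HC5 (1.04%) lay above every shrek tumour. Mean shares were 2.13 ± 0.547% in shrek tumours and 13.4 ± 19.3% in hulk tumours (SD, n = 10 and 9), a difference of -11.3 percentage points (two-sided exact permutation test, p = 0.000141, adjusted over 16 comparisons p = 0.00225). Without HC1 and HC2 the difference was -2.8 percentage points and still passed (adjusted p = 0.0107, exact permutation test). Sums of marker genes moved with the same groups. Liver markers summed to 1.12 to 20.7 CPM (reads scaled to a total of 1000000 non-mitochondrial gene reads) in shrek tumours and 32.6 to 519 CPM in hulk tumours, without overlap. Neutrophil markers were likewise apart, at 3.76 to 19.3 CPM in shrek tumours and 29.6 to 465 CPM in hulk tumours. Skin markers summed to 8.08 to 107 CPM in shrek tumours and 63.7 to 2200 CPM in hulk tumours, and T cell markers to 9380 to 22000 CPM in shrek tumours and 3290 to 10100 CPM in hulk tumours. Immediate early and heat shock genes held 0.694% to 1.12% of non-mitochondrial reads in shrek tumours and 0.884% to 1.98% in hulk tumours. The part of these differences in the share was not tested. Shrek and otg tumours differed by -1.95 percentage points (permutation test, adjusted p = 0.281). Otg tumours averaged 4.08 ± 3.37% (SD, n = 10) and differed from hulk tumours by -9.35 percentage points (exact permutation test, adjusted p = 0.281), or by -0.844 without HC1 and HC2.

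No other of the 16 comparisons of the share passed. Primary TLX1 tumours averaged 4.96 ± 2.36% and dissected thymi 2.2 ± 0.41% (SD, n = 6 each), a difference of 2.76 percentage points (exact permutation test, p = 0.0152, adjusted p = 0.121). The tumours PT1 to PT4 had shares of 4.5%, 8.5%, 6.61% and 3.86%, and the tumours T1 and T2 had 1.64% and 4.64%. The thymi had shares of 2.91%, 1.87%, 1.78%, 2.31%, 2.27% and 2.05%. All primary tumours other than T1 lay above all thymi, and T1 lay below them. Without T1, the tumour that went against the difference, it was 3.42 percentage points and passed (adjusted p = 0.0173, exact permutation test). Of the 12 libraries, T1 was the only one whose removal gave a difference that passed. The differences with 1 library left out ranged over 2.05 to 3.42 percentage points.

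Messages for cytosolic ribosomal proteins made up 46.8 ± 7.22% of the non-mitochondrial reads in heterozygous primary tumours and 44.7 ± 0.542% in the other primary tumours, against 20 ± 2.33% in the thymi (SD, n = 4, 2 and 6). When those messages were left out of the denominator, the share differed between tumours and thymi by 6.27 percentage points and passed (adjusted p = 0.0346, exact permutation test). Leaving out messages that are more abundant in the tumours raises the tumour shares more than those of the thymi by arithmetic. The larger difference is therefore no separate evidence of a higher mitochondrial share.

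All 13 genes were called higher in primary TLX1 tumours than in dissected thymi by edgeR's quasi-likelihood test across 22224 genes, where 20.2% of all genes were called higher. Their log2 fold changes had a median of 2.39, against -0.19 for all genes tested. That test scales libraries by trimmed means of M-values (TMM). Scaled by library size alone, 9 of the 13 were called higher with a median of 1.01, while the median of all genes was -1.45 and 16318 genes were called lower against 606 higher. Directions here are relative to those medians.

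The cytochrome c oxidase subunits mt-co1 and mt-co3, which with mt-co2 form the core of complex IV, were among the members with the smallest adjusted p. The tumours PT1 to PT4 had 1.19%, 2.64%, 2.01% and 1.16% of gene reads on mt-co1, and T1 and T2 had 0.499% and 1.5%. The thymi had 0.687%, 0.537%, 0.486%, 0.588%, 0.62% and 0.503%. On this scale 5 primary tumours lay above all thymi, and T1 lay within their range. The log2 fold change of mt-co1 was 2.61 ± 0.38 (SE; edgeR, adjusted p = 0.000109), or 1.21 by library size alone.

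For mt-co3, PT1 to PT4 had 0.97%, 1.73%, 1.45% and 0.921% of gene reads and T1 and T2 had 0.371% and 0.938%. The thymi had 0.585%, 0.374%, 0.402%, 0.436%, 0.436% and 0.413%. Here T1 was below every thymus and the other primary tumours were above every one. Its log2 fold change was 2.42 ± 0.34 (SE; edgeR, adjusted p = 8.01e-05), or 1.05 by library size alone.

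The complex I members mt-nd4 and mt-nd4l, subunits of its membrane arm that pumps protons, gave log2 fold changes of 2.39 ± 0.36 (SE; edgeR, adjusted p = 0.00013) and 2.58 ± 0.39 (SE; edgeR, adjusted p = 0.000137). On mt-nd4 the tumours PT1 to PT4 had 0.195%, 0.329%, 0.226% and 0.137% of gene reads and T1 and T2 had 0.0592% and 0.165%, against 0.0628% to 0.104% in the thymi. On mt-nd4l the primary tumours had 0.0215%, 0.0325%, 0.0204%, 0.0117%, 0.00498% and 0.0159%, against 0.00454% to 0.00869% in the thymi. T1 was the 1 primary tumour not above every thymus for either gene.

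The smallest change among the 13 was that of mt-nd3, a further small membrane subunit of complex I, with a log2 fold change of 1.09 ± 0.36 (SE; edgeR, adjusted p = 0.0199). By library size alone its value was -0.29, the only one of the 13 below 0. As a fraction of mitochondrial reads, mt-nd3 had 0.734% to 0.956% in the heterozygous primary tumours and 0.669% and 1.04% in the other primary tumours, against 1.43% to 2.29% in the thymi. The ranges of tumours and thymi did not overlap. The mt-co2 fraction was likewise without overlap, at 18% to 18.9% in the primary tumours against 20.7% to 25.3% in the thymi. These fractions of single genes were not tested, and the overlap of the other members' fractions is not given here. The summed fractions of complexes I and IV, which hold these genes, did not pass (exact permutation tests, adjusted p = 0.179 and 0.671).

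**Figure D2:**
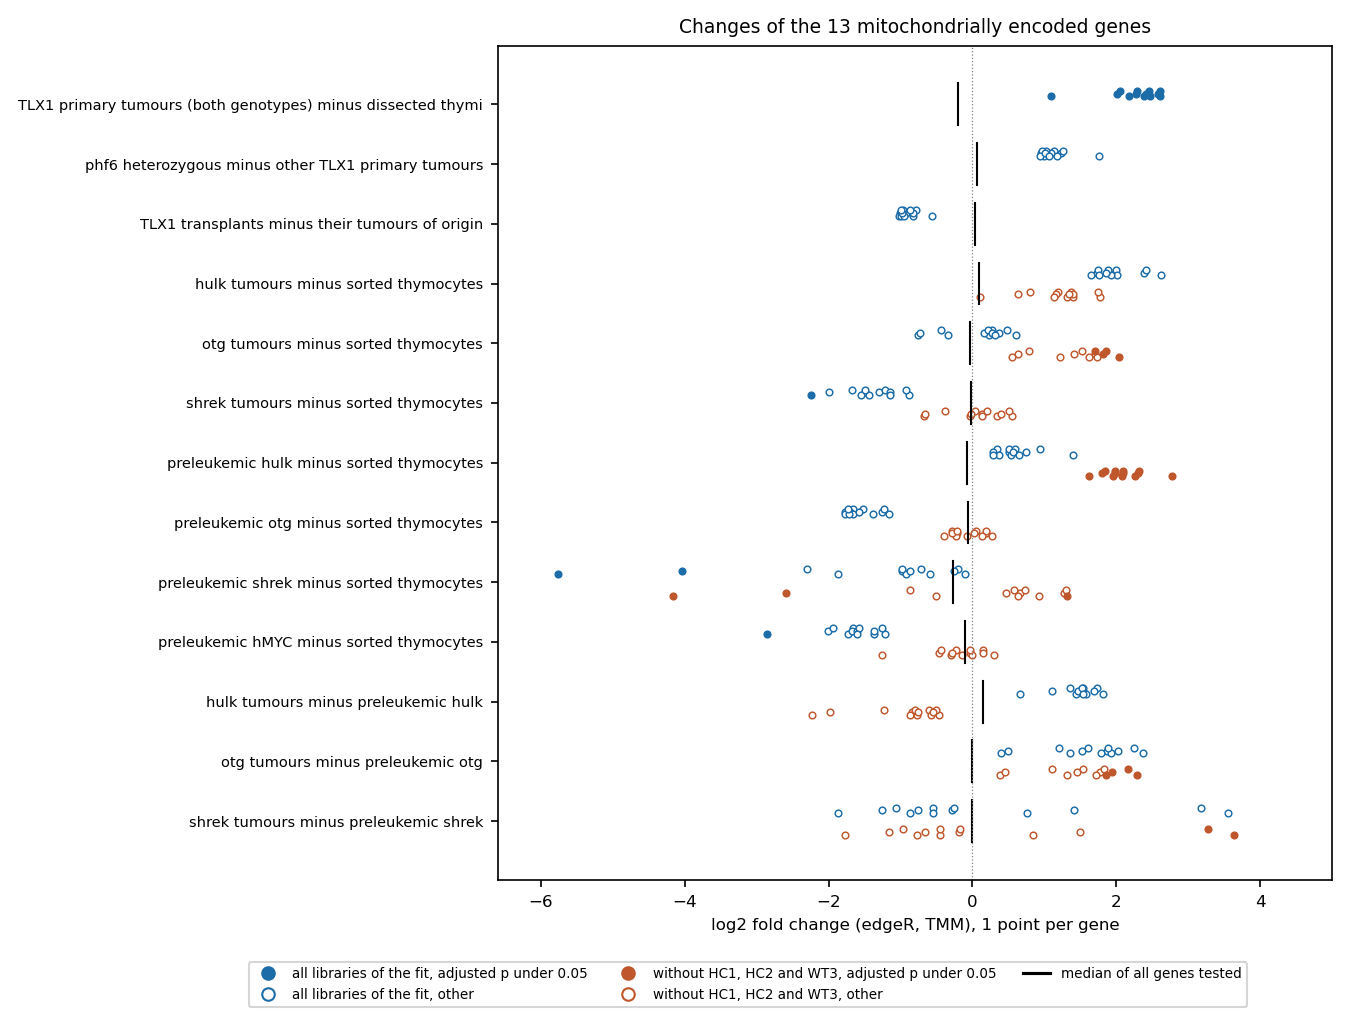
Log2 fold changes (horizontal axis; edgeR with TMM scaling) of the 13 genes in 13 comparisons, first-named group over second; each point is 1 gene, filled where the adjusted p is under 0.05, blue with all libraries and orange without HC1, HC2 and WT3, and vertical ticks mark the median of all genes tested. All 13 points are filled for TLX1 primary tumours minus dissected thymi, at 1.09 to 2.61; in the comparisons with sorted thymocytes the orange points stand at higher values for otg and shrek tumours and for all preleukemic groups.

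Markers of other tissues moved in both directions between these groups. The 28 skeletal muscle markers summed to 13.2 to 102 CPM in the primary tumours, against 5860 to 9240 in the thymi, and all 28 were called lower, where 35.8% of all genes were called lower. The 9 skin markers summed to 76.1 to 430 CPM in the tumours, against 5020 to 6650 in the thymi, and all 9 were called lower. In the 2 primary tumours that were not phf6+/-, 4 muscle and 2 skin markers had no read. The 16 T cell markers summed to 3220 to 21700 CPM in the tumours, against 9300 to 12500 in the thymi, with 5 called higher and 6 lower. The 6 lower were near the 35.8% of all genes. Of all genes, 20.2% were called higher. Neutrophil markers were called higher for 4 of 6 and lower for 2 (median log2 fold change 2.78), macrophage markers higher for 6 of 12 and lower for 3 (0.98), and liver markers higher for 6 of 12 and lower for 1 (2.77). Tumour state and tissue mix cannot be told apart between these groups, and the part of this mix in the mitochondrial result was not tested. PT2, which had the highest mitochondrial share of the model, also had its lowest T cell sum (3220 CPM) and the highest liver sum of the series (4590 CPM).

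No member was called between phf6+/- and other primary TLX1 tumours, where 0.0405% of all genes were called in either direction. All 13 log2 fold changes were positive, between 0.93 (mt-co1) and 1.76 (mt-nd6), with a median of 1.06 against 0.07 for all genes. The smallest adjusted p was 0.287 (edgeR); 3 members had an unadjusted p under 0.05, and DESeq2's test called 0. The mt-co1 and mt-co3 values, 0.93 and 1.06, had standard errors of 0.56 and 0.50. The median was 0.55 without PT2, 0.46 without T1 and 2.20 without T2. Mean shares were 5.87 ± 2.11% in heterozygous tumours and 3.14 ± 2.13% in the others (SD, n = 4 and 2; exact permutation test, adjusted p = 0.533). The heterozygous values lay between 3.86% and 8.5%, and T2 at 4.64% fell among them. The difference of 2.73 percentage points was 1.22 without T1 and 4.23 without T2.

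Nor was any member called between transplants and their tumours of origin, where 0.13% of all genes were called. Transplants of PT1, PT2, T1 and T2 had mean shares of 2.23%, 2.08%, 2% and 4.11%, against 4.5%, 8.5%, 1.64% and 4.64% in the primary tumours. The T2 mean includes T2-2-1 and T2-2-3, whose names extend that of the transplant T2-2. The share was lower in the transplants of 3 of the 4 tumours and higher in those of T1. The mean paired difference was -2.22 percentage points (exact sign-flip permutation test, p = 0.25, where 4 pairs allow no p below 0.125). All 13 log2 fold changes were negative, between -1.02 (mt-nd3) and -0.56 (mt-nd6), with a median of -0.95 against 0.03 for all genes. The edgeR test gave no adjusted p below 0.612, no member had an unadjusted p under 0.05, and DESeq2's test called 0. The values of mt-co1 and mt-co3 were -0.83 and -0.98. Without PT2 and its transplants the paired difference was -0.813 percentage points and the median of the members -0.35, and without T1 that median was -1.54. Neutrophil markers (4 of 6) and B cell markers (2 of 5) were called lower in the transplants, where 0.113% of all genes were called lower, and their part in these values was not tested.

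The mix of reads was described by complex and by gene. Reads per gene scale with transcript length, so these fractions describe the libraries and do not rank transcript levels between genes. Over the 67 libraries below 20%, the 3 complex IV members mt-co1, mt-co2 and mt-co3 held 64.9% to 80.8% of mitochondrial reads, with a median of 70.8%. The 7 complex I members mt-nd1 to mt-nd6 and mt-nd4l together held 8.06% to 17.8% (median 13.7%). The complex III member mt-cyb, the cytochrome b of that complex, held 5.32% to 11.8% (median 7.45%). The complex V members mt-atp6 and mt-atp8, parts of the membrane portion of ATP synthase, held 2.14% to 11% (median 7.52%). The total share of the same libraries ranged over 0.479% to 15.7%, a wider range in relative terms than that of any of these sums. The short gene mt-atp8 spanned a wider range than the total, at 0.00539% to 0.634%.

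Among the mitochondrial genes, mt-co1 had the highest read count in 66 of the 70 libraries, and mt-co2 and mt-co3 in 2 libraries each. Within complex I, mt-nd4 (median 4%) and mt-nd1 (3.57%) held more reads than mt-nd5 (2.3%) and mt-nd2 (2.19%), while mt-nd3 (0.719%) and mt-nd4l (0.457%) held under 1%. The fraction of mt-nd6, the subunit encoded on the opposite DNA strand from the others, was the smallest, with a median of 0.0244% and a range of 0.00263% to 0.0668%. In human cells this message lacks a long poly(A) tail. The strand setting of the authors' counting is not given in the sources used here, so reads of mt-nd6 and of transcripts antisense to it cannot be told apart.

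None of 80 tests of the mix passed (5 fractions, namely complexes I, III, IV and V and mt-nd6, in 16 comparisons; exact permutation tests with adjustment over the 80), and 14 had an unadjusted p under 0.05. The complex I fraction was 15.5 ± 1.78% in shrek tumours and 12.5 ± 1.82% in hulk tumours (SD, n = 10 and 9), a difference of 2.95 percentage points (exact permutation test, p = 0.0029, adjusted p = 0.116). Shrek tumours had 7.02 ± 0.636% of mitochondrial reads on mt-cyb and otg tumours 8.37 ± 1.36% (SD, n = 10 each; permutation test, p = 0.00269, adjusted p = 0.116). In primary TLX1 tumours the complex I fraction was 13.4 ± 1.05%, against 14.8 ± 0.479% in the thymi (SD, n = 6 each; exact permutation test, adjusted p = 0.179). Groups overlapped in these comparisons, but not in all with an unadjusted p under 0.05. The complex I fraction was 12.5% to 17.4% in shrek tumours and 9.9% to 10.7% in preleukemic shrek samples. For complex V, preleukemic hulk samples had 7.21% to 9.86% and preleukemic hMYC samples 7.12% to 10.4%. Sorted thymocytes had 5.48% to 7.08%. Each gave an adjusted p of 0.179 (exact permutation tests), from the smallest unadjusted p its group sizes allow. Further groups did not overlap either. Preleukemic shrek samples had 7.52% to 8.98% on complex V (exact permutation test against sorted thymocytes, adjusted p = 0.27). Preleukemic hMYC samples had 5.95% to 6.32% on complex III, against 6.67% to 8.06% in sorted thymocytes (exact permutation test, adjusted p = 0.26). The mt-nd6 fraction was 0.0326% to 0.0647% in shrek tumours, against 0.00898% to 0.0267% in preleukemic shrek samples (exact permutation test, adjusted p = 0.179).

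The otg tumours held several of the extreme mixes. OC2, with the lowest mitochondrial share of the series, had 36.3% of those reads on mt-co3, 2.02% on mt-atp6 and 80.8% on complex IV, the extremes of all 67 libraries below 20%. OC8 had the lowest fractions of mt-nd2 (0.444%) and mt-nd5 (0.179%). OC9 had the highest mt-co1 fraction (50.4%) and OC10 the lowest mt-co2 fraction (6.88%). OC5, with the highest share of its line, had the highest mt-cyb fraction (11.8%). A single sorted line thus covered most of the range of the mix seen in the series.

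Gene by gene, the mix of the libraries above 20% fell almost wholly within the range of the libraries below 20%. That range pools the groups of both laboratories and is wide, so lying within it is a weak check of likeness. Of all 13 fractions in HC1, HC2 and WT3, just the mt-nd6 fraction of HC1 (0.204%) lay outside the range of the 67 libraries below 20%. In WT3 all 13 fractions lay inside the range of the other 4 sorted thymocyte samples. Against the 7 hulk tumours below 20%, HC1 and HC2 each had 10 of 13 fractions inside the range and 3 above. The summed complex I fractions of HC1 (14.2%) and HC2 (15.2%) were both above the 9.3% to 13.9% of those tumours.

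**Figure D3:**
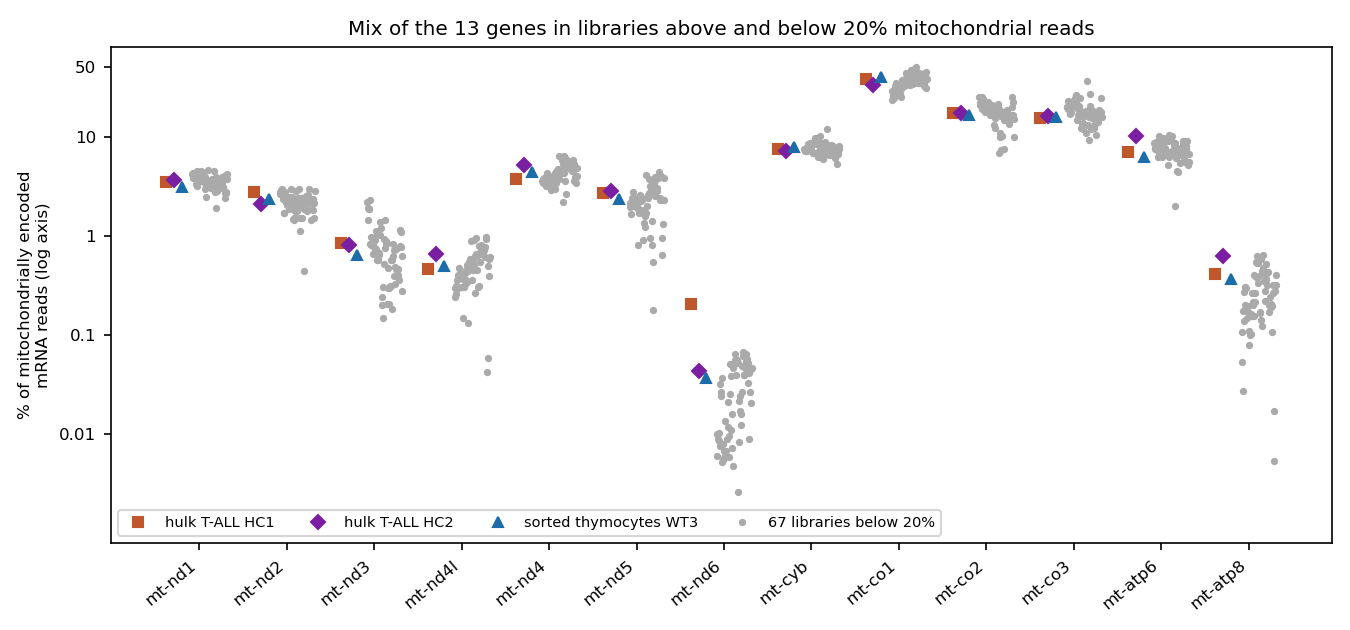
Fraction of mitochondrial reads (vertical log axis, percent) on each of the 13 genes; coloured symbols are HC1, HC2 and WT3, the libraries above 20%, and grey points are the 67 libraries below. The coloured symbols fall among the grey points for every gene other than mt-nd6, where HC1 stands at 0.204%.

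In HC1 the fractions above its line's range belonged to complex I. Its mt-nd2 fraction was 2.75%, against 1.44% to 2.32% in the hulk tumours below 20%, and its mt-nd5 fraction was 2.72%, against 0.905% to 2.3%. Its mt-nd6 fraction of 0.204% rested on 6468 reads, against 0.00479% to 0.0515%. In HC2 the fractions above the range were mt-nd4l (0.658%, against 0.133% to 0.587%), mt-nd4 (5.12%, against 2.94% to 4.77%) and mt-nd5 (2.82%). Both libraries thus stood above their line in mt-nd5, the largest complex I subunit of the mitochondrial genome.

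Several other features of these libraries also lay outside the ranges of their groups, in both directions. Immediate early and heat shock genes held 0.884% of non-mitochondrial reads in HC1, below the 1.04% to 1.98% of the hulk tumours below 20%. HC2 (1.4%) lay inside that range, and WT3 (2.1%) inside the 1.02% to 2.47% of the other sorted thymocytes. HC1 had 1.42% of its non-mitochondrial reads on nuclear respiratory chain genes, against 0.654% to 1.08% in the hulk tumours below 20%, while HC2 (0.974%) lay inside that range. WT3 had 0.725%, against 0.581% to 0.657% in the other sorted thymocytes. T cell markers summed to 3290 CPM in HC1 and 3560 in HC2, against 3920 to 10100, and liver markers to 518 and 519, against 32.6 to 338. HC2 was also above the others in skin markers (2200 CPM, against 63.7 to 1920), in muscle markers (203, against 12.5 to 172), in macrophage markers (137, against 15.1 to 109) and in reads assigned to no single gene because they overlap several (1.31% of reads, against 0.215% to 0.47%). WT3 had 551 CPM on liver markers, 319 on muscle markers and 1480 on skin markers, against 3.79 to 106, 16.5 to 95 and 80 to 439 in the other sorted thymocytes. Its B cell sum (68.3 CPM, against 13.4 to 56.8), its macrophage sum (47.6 CPM, against 26.6 to 36.5) and its reads overlapping several genes (0.519%, against 0.329% to 0.496%) were also above theirs. Its T cell sum (6640 CPM) lay inside their range. The part of these features in the shares was not tested.

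HPL3, at 15.7% the highest share below 20%, had the smallest depth of the series (8676867 gene reads) and 31.8% of its reads mapped to several places, against 12.7% to 13.3% in the other preleukemic hulk samples. Muscle and liver markers were also highest there within its group (304 and 635 CPM), and the T cell sum was lowest (3710 CPM). Its mt-co1 fraction (42.9%) and mt-nd3 fraction (1.43%) stood above the other 2 samples.

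In comparisons with healthy sorted thymocytes, WT3 set the level of the healthy group. The healthy shares were 3.77%, 1.64%, 22%, 1.91% and 2.44% in WT1 to WT5, so that 1 library held most of the summed share. No difference of a tumour group from the healthy group passed the test. Hulk tumours differed from it by 7.09, otg tumours by -2.26 and shrek tumours by -4.22 percentage points (exact permutation tests, adjusted p between 0.281 and 0.767). Without the libraries above 20% the otg difference was 1.64 percentage points, the opposite direction.

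In hulk tumours no member was called against sorted thymocytes, where 13.7% of all genes were called. All 13 log2 fold changes were positive, between 1.64 (mt-co1) and 2.62 (mt-nd6), with a median of 1.92 against 0.09 for all genes. The smallest adjusted p was 0.069 (edgeR), 12 members had an unadjusted p under 0.05, and DESeq2's test called 5 higher. The values of mt-co1 and mt-co2 were 1.64 ± 0.84 and 1.86 ± 0.91 (SE). Without WT3 all 13 were called higher, at a median of 3.43, and without HC5 2 were. The shares of all genes called in those fits and by DESeq2's test are not given here, so these counts cannot be set against them. Without HC2 the median was 0.48, with no unadjusted p under 0.05, and without HC1, HC2 and WT3 together none was called, at a median of 1.32.

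In otg tumours no member was called against sorted thymocytes, where 28% of all genes were called. Of the 13 values, 9 were positive and 4 negative, between -0.75 (mt-nd5) and 0.60 (mt-cyb). In edgeR no adjusted p was below 0.489, and neither an unadjusted p under 0.05 nor a call by DESeq2's test was found. By library size alone the median was -0.63, against -0.58 for all genes, so that the direction depends on the scaling. Without WT3 and the high hulk tumours 4 members were called higher, at a median of 1.62. For that fit the share of all genes called is not given here, so the count cannot be set against it. The values of mt-co1 and mt-co3 were 0.47 and 0.22 with all libraries.

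In shrek tumours 1 of the 13 members, a smaller share than the 21.7% of all genes, was called lower than in sorted thymocytes. This was mt-atp8, a small subunit of ATP synthase, with 395 to 1022 reads and 0.00208% to 0.00603% of gene reads in the 10 shrek tumours. The healthy samples WT1 to WT5 had 0.012%, 0.00457%, 0.0813%, 0.00617% and 0.00974% of gene reads. The groups overlapped, and WT3 stood far above the rest. The log2 fold change was -2.24 ± 0.78 (SE; edgeR, adjusted p = 0.0267), and -0.66 without the libraries above 20%, where no member was called. All 13 values were negative (median -1.44, or 0.19 without WT3, against -0.02 for all genes) and 5 had an unadjusted p under 0.05, while DESeq2's test called 3 lower. Without WT4 edgeR called 3 members and without WT5 it called 2. For those fits and DESeq2's test the shares of all genes called are not given here.

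Expressed as a fraction of mitochondrial reads, which does not depend on the total share, mt-atp8 stood at 0.108% to 0.319% in shrek tumours against 0.279% to 0.399% in healthy thymocytes. Among the shrek tumours only SC011 (0.319%) reached the healthy range. The preleukemic hMYC samples had 0.171%, 0.166% and 0.143%, below every healthy sample. The median of the 67 libraries below 20%, at 0.216%, was also below every healthy sample, so this position was not particular to these groups. These fractions were not tested.

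The preleukemic shrek samples had the lowest fractions of all libraries in a pair of short genes. The mt-atp8 gene had 90 and 228 reads in SPL001 and SPL002, against 1646, 622, 11343, 952 and 1292 in the healthy samples WT1 to WT5, although the shrek libraries were deeper (56471528 and 47598816 gene reads, against 13259934 to 15437586). As fractions of mitochondrial reads these were 0.00539% and 0.0173%, against 0.279% to 0.399%. The next lowest mt-atp8 fraction of the series was 0.027%, in a dissected thymus.

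The mt-nd4l gene had 703 and 776 reads in the preleukemic shrek samples, against 2542, 882, 15291, 1741 and 1982 in the healthy samples. Its fractions were 0.0421% and 0.0588%, against 0.395% to 0.612%. The next lowest fraction of the series was 0.133%, in the hulk tumour HC4. Both genes were the 2 members called lower in this comparison, where 20.7% of all genes were called lower. The 2 of 13 members called were a smaller share than that of all genes. The log2 fold change was -5.76 ± 1.32 for mt-atp8 (SE; edgeR, adjusted p = 0.00418) and -4.03 ± 1.09 for mt-nd4l (SE; edgeR, adjusted p = 0.00988), or -4.16 and -2.59 without WT3, both still called. Without SPL001 no member was called and without SPL002 1 was, each with a single library left in the group that was assumed to vary like the other groups.

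**Figure D4:**
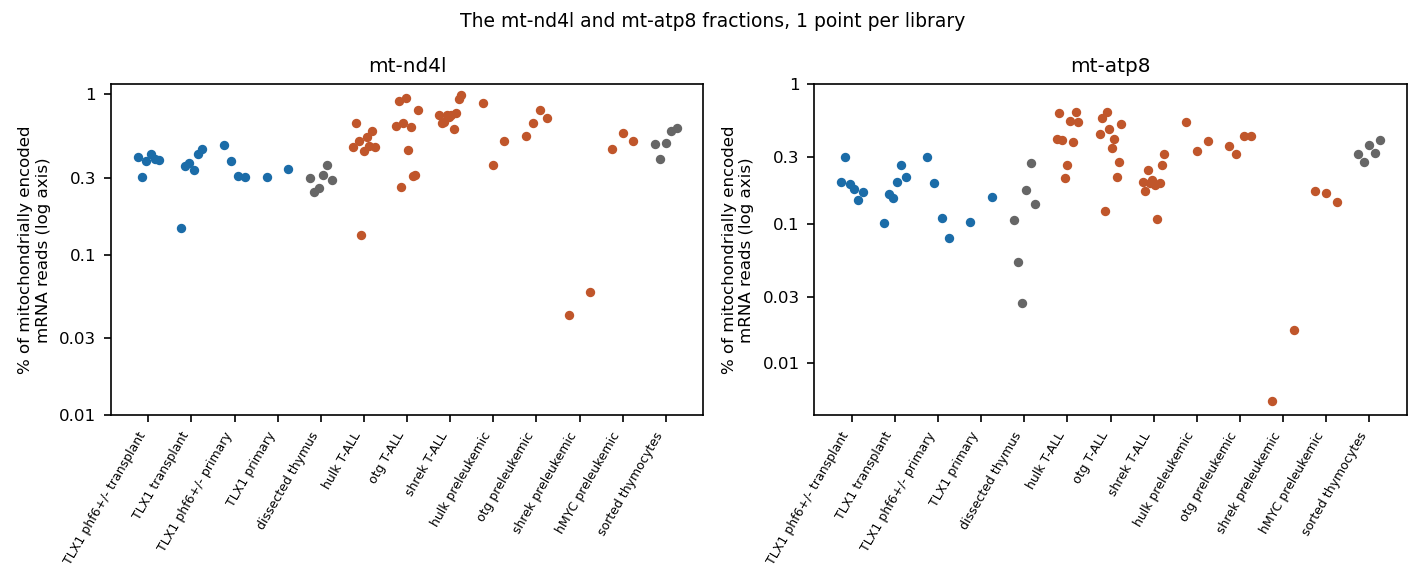
Fraction of mitochondrial reads (vertical log axis, percent; the 2 panels have their own scales) on mt-nd4l and mt-atp8 by group; each point is 1 library. The 2 preleukemic shrek libraries are the lowest of all 70 in both panels, at 0.0421% and 0.0588% for mt-nd4l and at 0.00539% and 0.0173% for mt-atp8.

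Their neighbours did not share this position. In vertebrate mitochondrial genomes mt-nd4l adjoins mt-nd4 and mt-atp8 adjoins mt-atp6, each pair overlapping and kept on 1 message, so reads can be split between partners by the way they were counted and both short genes are uncertain. The mt-nd4 fraction was 3.54% and 3.8% in SPL001 and SPL002, against 3.37% to 4.8% in the healthy samples. The mt-atp6 fraction was 7.52% and 8.96%, against 5.2% to 6.68%. Reads left out because they overlap several genes made up 0.307% and 0.331% of reads in the preleukemic shrek libraries, against 0.329% to 0.519% in the healthy ones. The part of the greater depth in these values was not tested. The mt-nd5 fraction was also low there, at 0.645% and 0.942% against 1.31% to 3.81%, and its log2 fold change of -2.30 was not called.

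All 13 log2 fold changes of preleukemic shrek samples against healthy thymocytes were negative, with a median of -0.92 against -0.27 for all genes. Without the libraries above 20% the median was 0.63, with 1 member called higher and 2 called lower, in a fit whose share of all genes called is not given here. Against the preleukemic shrek samples the shrek tumours had no member called, where 15.4% of all genes were called in either direction. The values ran from -1.87 (mt-nd3) to 3.55 (mt-atp8), with 9 negative and 4 positive. The smallest adjusted p was 0.101 (edgeR), 2 members had an unadjusted p under 0.05, and DESeq2's test called 2 higher. How many of all genes DESeq2's test called is not given here. The values of mt-co1 and mt-co2 were -0.55 and -1.26. Shares were 2.13 ± 0.547% in shrek tumours and 2.96% and 2.77% in the preleukemic samples, a difference of -0.738 percentage points (exact permutation test, adjusted p = 0.323).

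In preleukemic hMYC samples 1 of the 13 members, mt-atp8, was called lower than in healthy thymocytes. This was a smaller share than the 11.3% of all genes called lower. MPL1 to MPL3 had 561, 588 and 463 reads, all below the healthy samples (622 to 11343 reads). The log2 fold change was -2.86 ± 0.93 (SE; edgeR, adjusted p = 0.0426), but -1.26 and not called without WT3. Nor was it called without WT1 or without any single one of MPL1 to MPL3. All 13 values were negative (median -1.61, against -0.10 for all genes), 4 had an unadjusted p under 0.05, and DESeq2's test called 3 lower. How many of all genes that test called is not given here. The 3 shares were 1.86%, 1.87% and 1.79%, the narrowest of any group of more than 2 libraries, and differed from the healthy mean by -4.51 percentage points (exact permutation test, adjusted p = 0.746).

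In preleukemic otg samples no member was called, where 5.33% of all genes were called. Their shares were 2.41%, 1.81%, 2.29% and 2.66%, inside the range of the healthy samples (exact permutation test, difference -4.06 percentage points, adjusted p = 0.8). The 13 log2 fold changes lay between -1.78 (mt-co1) and -1.16 (mt-nd5), with a median of -1.65 against -0.06 for all genes, and mt-co3 had -1.73. In edgeR no adjusted p was below 0.167, 6 members had an unadjusted p under 0.05, and DESeq2's test called 0. Without WT3 the median was -0.07.

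In preleukemic hulk samples no member was called, where 3.77% of all genes were called. Shares were 3.93%, 5.74% and 15.7% in HPL1 to HPL3, and HPL1 and HPL2 lay above all healthy samples other than WT3 (exact permutation test, difference 2.1 percentage points, adjusted p = 0.8). The 13 values lay between 0.29 (mt-co3) and 1.39 (mt-nd3), with a median of 0.54 against -0.07 for all genes; mt-co1 had 0.59 and mt-co2 0.56. The edgeR test gave no adjusted p below 0.362, with no unadjusted p under 0.05 and no call by DESeq2's test. Without WT3 all 13 were called higher, at a median of 2.08, though the share of all genes called in that fit is not given here. Without HPL3 mt-co1 had -0.44.

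The tumours of the otg and hulk lines had no member called against their preleukemic samples. For otg, 12.1% of all genes were called, and the 13 values were all positive, between 0.40 (mt-nd5) and 2.37 (mt-cyb), with a median of 1.78 against -0.01 for all genes. The smallest adjusted p was 0.0981 (edgeR), 4 members had an unadjusted p under 0.05, and DESeq2's test called 2 higher. How many of all genes DESeq2's test called is not given here. The mt-co1 and mt-co3 values were 2.24 and 1.93. Mean shares were 4.08 ± 3.37% in otg tumours and 2.29 ± 0.357% in preleukemic otg samples (SD, n = 10 and 4; exact permutation test, adjusted p = 0.602). Of the 10 tumours, 7 lay above all preleukemic otg samples and OC1, OC2 and OC3 lay below them.

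For hulk, 0.206% of all genes were called between tumours and preleukemic samples, and the 13 values lay between 0.66 (mt-nd3) and 1.82 (mt-atp8), with a median of 1.53 against 0.14 for all genes. In edgeR no adjusted p was below 0.423, with no unadjusted p under 0.05 and no call by DESeq2's test. The mt-co1 and mt-co2 values were 1.11 and 1.36. The median was 0.06 without HC2 and 1.45 without HC1, and -0.76 without HC1, HC2 and WT3. Shares were 13.4 ± 19.3% in hulk tumours and 8.45 ± 6.32% in preleukemic hulk samples (SD, n = 9 and 3; exact permutation test, adjusted p = 0.8).

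The change between preleukemic and tumour stage in the share differed between shrek and otg. It was -0.738 percentage points in shrek and 1.79 in otg, a difference of -2.53 (exact permutation test of the difference, p = 0.0147, adjusted over 3 pairs of lines p = 0.044). On the log2 scale of the share the same test gave an adjusted p of 0.293, and leaving out any of 17 single libraries raised the adjusted p above 0.05. Hulk was not shown to differ from either line in this respect (adjusted p = 0.698 for both, exact permutation tests).

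The nuclear genes that work with the mitochondrial genome were set beside the 13 members in each comparison. In primary TLX1 tumours against thymi, 20.2% of all genes tested were called higher and 35.8% lower. There, 60 of 74 mitochondrial ribosomal protein genes were called higher and 0 lower, with a median log2 fold change of 0.75. The nuclear subunits were called higher for 14 of 38 genes of complex I (median 0.50), 13 of 20 of complex IV (0.87) and 14 of 18 of complex V (0.70), with 1 complex IV gene lower. Genes of mitochondrial DNA maintenance and transcription were higher for 14 of 21 (0.67), and those of mitochondrial RNA processing for 28 of 35 (0.75). The medians of these lists lay between that of all genes (-0.19) and that of the 13 mitochondrial genes (2.39). Cytosolic ribosomal protein genes were higher for 80 of 82, at a median of 2.44. In phf6+/- against other primary tumours, and in transplants against their tumours of origin, no gene of the nuclear mitochondrial lists was called in either direction by edgeR (6 of 259 and 4 of 258 tested genes had an unadjusted p under 0.05).

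**Figure D5:**
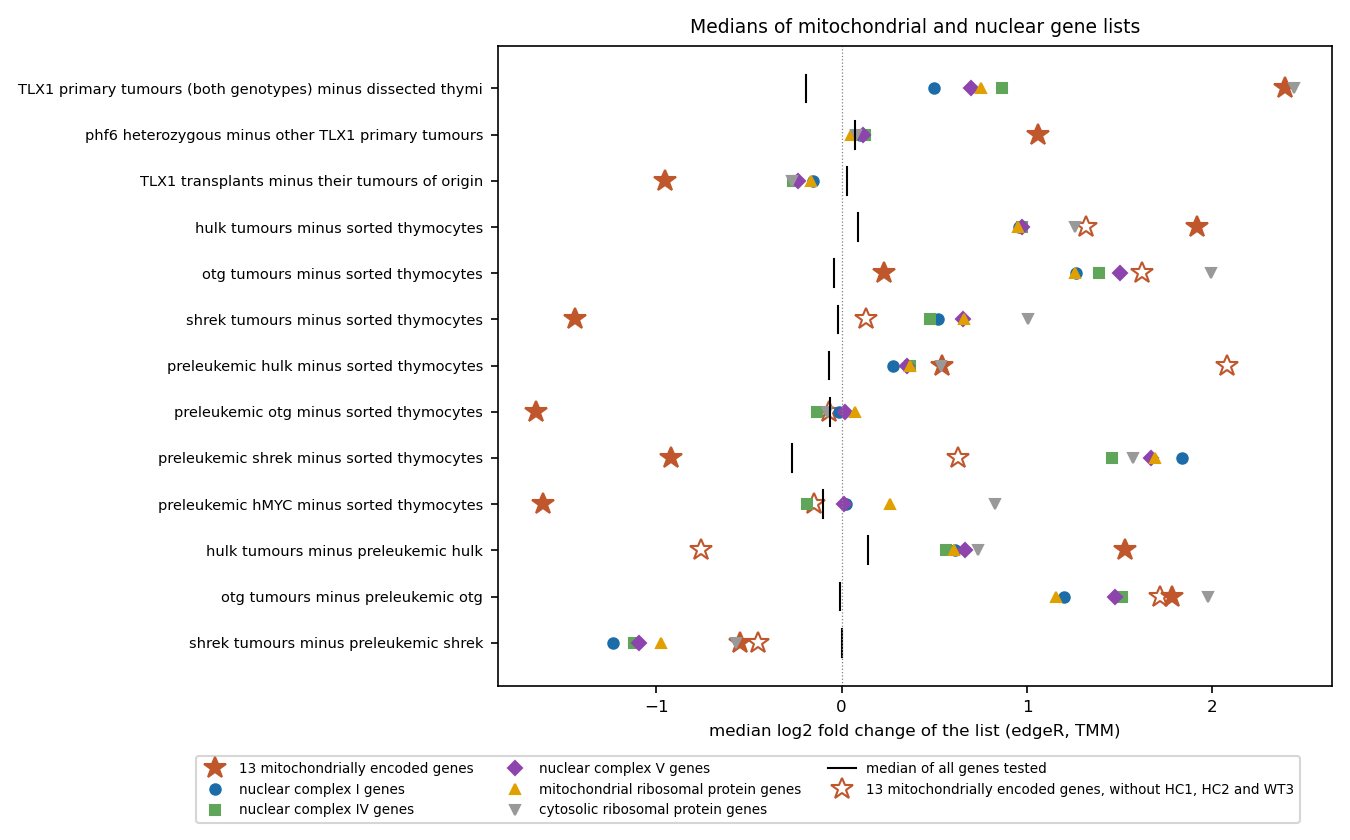
Median log2 fold change (horizontal axis; edgeR with TMM scaling) of the 13 mitochondrially encoded genes (filled stars), of the same genes without HC1, HC2 and WT3 (open stars), of 5 nuclear lists (other symbols) and of all genes tested (ticks) in 13 comparisons, first-named group over second. In preleukemic shrek minus sorted thymocytes the nuclear complex I median is 1.84 while the mitochondrial median is -0.92 with all libraries. Without WT3 the mitochondrial median of that comparison is positive (open star).

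In the preleukemic shrek samples the nuclear lists and the members had medians of opposite sign with all libraries. Against healthy thymocytes, 33 of 37 nuclear complex I genes were called higher and 0 lower (median 1.84), where 17.3% of all genes were called higher. So were 18 of 18 complex V genes (1.67) and 73 of 74 mitochondrial ribosomal protein genes (1.69). Nuclear respiratory chain genes made up 1.12% and 1.23% of their non-mitochondrial reads, against 0.581% to 0.725% in the healthy samples. The mitochondrial members had a median of -0.92 in the same fit, or 0.63 without WT3. Cytosolic ribosomal protein genes were called higher for 75 of 82 and lower for 1 (median 1.57). Macrophage markers moved as well, with 6 of 12 called higher and 1 lower, and sums of 34.8 and 66.7 CPM against 26.6 to 47.6. Immediate early and heat shock genes were called lower for 10 of 27 and higher for 2, where 20.7% of all genes were called lower. Kidney tubule markers were called lower for 6 of 9. The part of these lists in the result was not tested.

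In otg tumours against healthy thymocytes, 24 of 37 nuclear complex I genes (median 1.26), 15 of 18 complex V genes (1.50) and 61 of 74 mitochondrial ribosomal protein genes (1.26) were called higher and 0 lower, where 12.8% of all genes were called higher and no mitochondrial member was called. In hulk tumours the counts were 5 of 37, 2 of 18 and 24 of 74, where 8.47% of all genes were called higher. In shrek tumours they were 3 of 37, 2 of 18 and 23 of 74, where 8.53% were. The complex I and V counts of both lines lay near those shares. Over all nuclear mitochondrial lists, 51 of 258 genes were called higher and 1 lower in hulk tumours, and 63 higher and 3 lower in shrek tumours. An unadjusted p under 0.05 in edgeR was found for 173 of the 258 in hulk tumours and 116 in shrek tumours. The share of all genes with such a p is not given here. Against their preleukemic samples, otg tumours had 14 complex I and 44 mitochondrial ribosomal protein genes higher and 0 lower, where 6.55% of all genes were called higher and 5.52% lower. In the same comparison 52 of 82 cytosolic ribosomal protein genes and 8 of 12 liver markers (median 5.37) were called higher and 12 of 25 muscle markers lower. Shrek tumours had 13 complex I and 21 mitochondrial ribosomal protein genes lower and 0 higher, where 9.25% of all genes were called lower, and 7 of 12 macrophage and 13 of 25 muscle markers were also lower. The part of these markers in the counts was not tested. Hulk tumours had none called against preleukemic hulk (51 of 258 genes of all mitochondrial lists had an unadjusted p under 0.05 in edgeR). In preleukemic hMYC samples 3 of 20 complex IV genes were lower, near the 11.3% of all genes, and 4 of 74 mitochondrial ribosomal protein genes were higher, against 8.61% of all genes.

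Relations were run within the hulk, otg and shrek tumours and the dissected thymi, and not within the transplants, which share tumours of origin. The mitochondrial share was set against the shares of nuclear respiratory chain, cytosolic ribosomal protein and immediate early genes. None of the 12 relations passed. In the 10 otg tumours the share and the nuclear respiratory chain share gave Pearson's r = 0.70 (permutation p = 0.0215, adjusted over 12 p = 0.258) and Spearman's rho = 0.41 (permutation p = 0.248, adjusted p = 0.909). Without the 2 tumours farthest from the median on the nuclear share, r was 0.27, so the relation rested on those tumours.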

How the data were processed

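Raw gene read counts were used as deposited by the authors in 3 tables, 1 of them for the healthy sorted thymocytes alone. Per the submitters' processing notes STAR and the build GRCz10 were used; versions, annotation and strand setting are not given in the sources used here. Columns were matched to libraries by the labels, and 9 columns that matched no labelled library were left out. Summary entries that name no gene (17.9% to 52.6% of reads, median 36.7%, in the 46 Frazer libraries) stayed out of library sizes and tests.

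Symbols came from a gene-name table for 27000 of the 35117 genes. It gives mt- symbols to 13 protein genes, so the mitochondrial rRNA and tRNA genes are not analysed here. No sequences were used.

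The main test was edgeR 4.0.16 (R 4.3.3) with TMM scaling, filterByExpr (minimum count 10, minimum total 15), a robust quasi-likelihood fit and Benjamini-Hochberg adjustment over all tested genes at 0.05. It was fitted on the TLX1 primaries with the thymi, on the 46 Frazer libraries, on the 17 preleukemic and healthy sorted libraries, and on 4 tumours with their summed transplants, paired by tumour of origin. Shares and fractions were compared by two-sided exact permutation tests (100000 resamples where both groups held 10) in Python 3.11.15 with SciPy 1.17.1. DESeq2 1.42.0, other scalings, filters and left-out libraries were alternatives. The scripts were tested on simulated data.

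The members, lists and tests were chosen with earlier results of these data known. Members with fold changes were those with the 4 smallest adjusted p among the called, or the 2 with the highest mean level where none was called; mt-nd3 (TLX1 tumours), mt-nd5 (preleukemic shrek) and the members at the ends of each range were added after their values were seen. The lowest member count was 2 reads.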

Additional observations from a re-analysis of the deposited data

Results flagged for a closer look

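The change of the mitochondrial share between preleukemic and tumour stage differed between shrek (-0.738 percentage points) and otg (1.79), by -2.53 percentage points (exact permutation test, adjusted over 3 pairs p = 0.044). The otg tumours OC5 (11.9%) and OC8 (6.87%) were the highest of that line, and the difference was -1.66 without OC5 (adjusted p = 0.0878, exact permutation test).

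In each group of 4 to 10 libraries, the gap of the highest or lowest library to its nearest neighbour was compared with the group's range by Dixon's test, for the share and 5 fractions; 5 of 54 checks stood out, where chance gives about 1 in 20. The hulk tumour HC2 stood out with a share of 61.4%, and the healthy sample WT3 with 22%. The otg tumour OC5 stood out with 11.8% of its mitochondrial reads on mt-cyb, the complex III member. The mt-nd6 fraction stood out in the hulk tumour HC1 at 0.204%, against 0.00479% to 0.0515% in the hulk tumours below 20%. It also stood out in the heterozygous primary tumour PT1 at 0.0369% (540 reads).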

How the results depend on the processing

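The share of mitochondrial reads kept its direction in all settings run for 12 of 16 comparisons. Of primary TLX1 tumours and thymi it differed by 6.27 percentage points outside ribosomal protein reads, which passed, and by 2.05 to 3.42 with 1 library left out. Without HC1, HC2 and WT3 the difference reversed for otg tumours against sorted thymocytes (1.64), for preleukemic shrek against sorted thymocytes (0.426) and for hulk tumours against preleukemic hulk (-3.52). With all libraries, the hulk difference was -0.00198 on the log2 scale. With 1 library left out, these 3 ranged over -3.44 to 1.64, -4.66 to 0.426 and -1.01 to 8.6, and preleukemic hulk against sorted thymocytes over -1.51 to 6.01. The stage difference of shrek against otg (alternatives chosen after seeing the data) was -0.837 on the log2 scale, no longer passing, and -2.93 to -1.66 with 1 library left out. That of otg against hulk was 0.361 on the log2 scale and 5.31 without HC1 and HC2, and ranged over -6.81 to 2.8; that of shrek against hulk was 2.78 and ranged over -9.33 to 0.275. The mt-nd6 fraction reversed without HC1, HC2 and WT3 for hulk tumours against sorted thymocytes (-0.0175) and otg against hulk tumours (0.00404).

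Calls of members by edgeR moved with several settings. Shares of all genes called are not given for the settings below, so these counts cannot be set against them. Without HC1, HC2 and WT3, 13 members were called in preleukemic hulk, 4 in otg tumours, 0 in shrek tumours and 0 in preleukemic hMYC samples against sorted thymocytes, and 4 and 2 in otg and shrek tumours against their preleukemic samples. With 1 library left out, calls ranged over 0 to 13 for hulk tumours and for preleukemic hulk, 0 to 3 for shrek tumours and for preleukemic shrek, and 0 to 1 for preleukemic hMYC. DESeq2's test called 5 in hulk tumours, 3 in shrek tumours, 4 in preleukemic shrek and 3 in preleukemic hMYC samples against sorted thymocytes, and 2 each in otg and shrek tumours against preleukemic samples. For shrek tumours against sorted thymocytes, DESeq2's size factors gave 3 calls, library size alone 4 and a fit of the compared groups alone 8; for hMYC no filter and the compared groups alone gave 0 each. The compared groups alone gave 6 for shrek tumours against preleukemic shrek. Reversed log2 fold changes in otg tumours against sorted thymocytes were -0.47 (mt-co1) and -0.82 (mt-co3) by library size alone, with ranges of -0.19 to 2.03 and -0.56 to 1.6 with 1 library left out. In hulk tumours against preleukemic hulk they were -0.80 (mt-co1) and -0.75 (mt-co2) without HC1, HC2 and WT3, with ranges of -0.1 to 2.14 and -0.01 to 2.28, and in preleukemic hulk against sorted thymocytes the ranges were -0.44 to 2.09 and -0.37 to 2.08. The cause was not tested. With the replicate block, 0 members were called in shrek tumours and in preleukemic hMYC samples against sorted thymocytes, and no other count of calls moved. Same-numbered libraries of the groups deviated together (r above 0.1) in 25 of 107 pairs, with r from -0.49 to 0.54. Differently numbered libraries were not compared, so this check cannot decide whether the numbers pair the Frazer samples.

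Fractions of rRNA and tRNA, and the alternatives on messages alone, were not run, since the 13 protein genes were the only members. Depth limited mt-nd6 (2 reads in OC2).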
